A study of Arabidopsis thaliana with 3 samples.

Results

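The bHLH Ib transcription factors of Arabidopsis thaliana are 4 related genes, BHLH38 (AT3G56970), BHLH39 (AT3G56980), BHLH100 (AT2G41240) and BHLH101 (AT5G04150), and they were found in the files by locus identifier. They are 4 of the 2666 genes listed in at least 1 of the 2 deposited tables. The study compared 3 genotypes as whole seedlings at 14 days, grown on MS plates in long days after 2 days of stratification: the pwo1 mutant, the crwn1 crwn2 double mutant and the wild type Col-0. PWO1 carries a PWWP domain and works with Polycomb proteins in gene silencing. CRWN1 and CRWN2 are long coiled-coil components of the plant nuclear lamina. No allele of either mutant is named in the labels, and no further treatment or transgene is given for any genotype. The series holds 1 sample record per genotype, while the design text states 3 biological replicates per genotype. Roots and shoots were harvested together, so fewer cells of a type and less RNA per cell cannot be told apart in any value below.

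The values are the authors' own comparisons, with 1 table per mutant, and each row gives a fold change and p-value from edgeR and another pair from Cuffdiff. There are 1239 listed genes for pwo1 and 1935 for crwn1 crwn2, and the largest p-values in them are 0.00386 and 0.00585 by edgeR and 0.00455 and 0.0074 by Cuffdiff in the authors' deposited tables. A gene that is not listed is not shown to be unchanged. Values per library, levels of expression and depth were not analysed here, so the labelled tissue could not be checked against its marker genes. Every fold change below is mutant over Col-0, on the log2 scale unless written as "fold". In the authors' deposited table for crwn1 crwn2 the mutated genes CRWN1 and CRWN2 have log2 fold changes of -3.03 and -2.42, which checks that sign. PWO1 is not listed for pwo1, so the sign of the pwo1 values rests on a header of the same form. How far the replicates of a genotype differed is not shown by these files.

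In plants that acquire iron by reduction, a cascade of basic helix-loop-helix (bHLH) proteins turns on uptake when iron is short. Class IVc factors and BHLH121 activate the bHLH Ib genes, and the bHLH Ib proteins pair with the root regulator FIT to activate the reductase gene FRO2 and the transporter gene IRT1. The ligase BTS targets class IVc factors for degradation, and small IMA peptides counteract it. The bHLH Ib genes are textbook markers of iron deficiency in both roots and leaves.

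All 4 genes lie on the minus strand of the TAIR10.1 reference. BHLH38 (chr3:21084035-21085245) and BHLH39 (chr3:21086390-21087710) are tandem neighbours with 1144 bases between them. BHLH100 is at chr2:17198037-17199454 and BHLH101 at chr5:1138410-1139633. The models of BHLH38, BHLH39 and BHLH100 with the longest coding sequence have 2 exons, and that of BHLH101 has 3. Coding length is 762 bases in BHLH38, 777 in BHLH39, 729 in BHLH100 and 783 in BHLH101. BHLH38 and BHLH39 are the closest pair, with 84.8% identical bases over 762 aligned coding bases. BHLH100 shares 75.3% with BHLH38 and 75.8% with BHLH39, while BHLH101 shares 61.1% to 63.6% with the rest.

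The longest exact runs between these coding sequences are shown because they bear on whether a read can belong to more than 1 member. Only exact matches were sought, so reads placed with mismatches are not covered. The longest exact run common to BHLH38 and BHLH39 has 34 bases, that common to BHLH39 and BHLH100 has 32, and BHLH101 shares no run over 13 bases with any of the others.
BHLH38 and BHLH39: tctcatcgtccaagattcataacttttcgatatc
BHLH39 and BHLH100: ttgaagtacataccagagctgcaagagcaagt
BHLH38 and BHLH101: tacataccagagc
None of the 50-base stretches of the 4 transcripts occurs a second time in the reference genome (0 of 1033 in BHLH38, 0 of 1166 in BHLH39, 0 of 1108 in BHLH100 and 0 of 980 in BHLH101). The last run also occurs in BHLH39 and BHLH100, where it lies within the 32-base run above.

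Overlap with other genes is a separate matter from copies. BHLH38 overlaps the end of PIP5K4, a gene on the opposite strand, by 386 bases, which is 31.9% of its length, and BHLH101 overlaps GLU1 on the opposite strand by 79 bases, or 6.45%. The library kit in the labels, TruSeq RNA v2, does not mark strand, so reads of these overlaps cannot be told apart. Neither PIP5K4 nor GLU1 is listed in either table. BHLH39 and BHLH100 overlap no annotated gene.

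**Figure D1:**
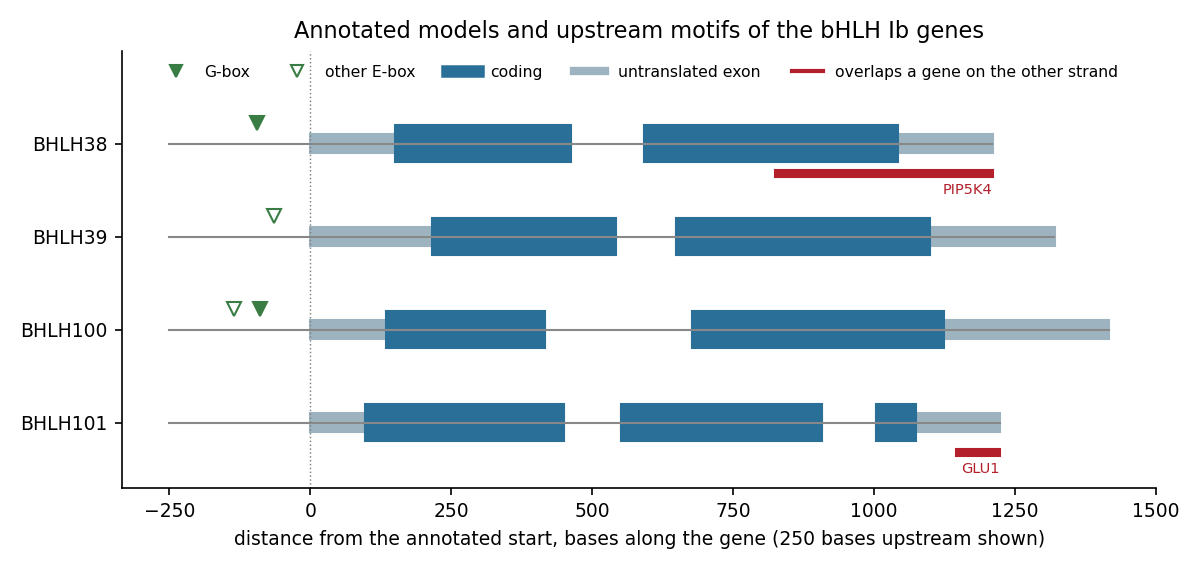
The annotated models of the 4 bHLH Ib genes are drawn along the gene, with the distance from the annotated start in bases on the x axis. Filled triangles mark a G-box and open triangles another E-box in the 250 bases upstream, and red bars mark overlap with a gene on the other strand, 386 bases for BHLH38 and 79 bases for BHLH101.

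The 250 bases before each annotated start are shown because these genes were listed together and bHLH proteins bind E-box motifs. Capitals mark every E-box, CANNTG, of which the G-box, CACGTG, is 1 form. Both motifs read the same on either strand. Each window is given 5′ to 3′ toward the gene, on the minus strand of TAIR10.1, and 0 other annotated genes lie in any of the windows.
BHLH38, chr3:21085246-21085495: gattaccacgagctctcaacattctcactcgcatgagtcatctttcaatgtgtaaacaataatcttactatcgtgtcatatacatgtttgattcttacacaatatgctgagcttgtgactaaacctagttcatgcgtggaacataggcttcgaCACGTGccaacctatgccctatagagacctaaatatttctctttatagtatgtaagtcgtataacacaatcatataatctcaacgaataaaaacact
BHLH39, chr3:21087711-21087960: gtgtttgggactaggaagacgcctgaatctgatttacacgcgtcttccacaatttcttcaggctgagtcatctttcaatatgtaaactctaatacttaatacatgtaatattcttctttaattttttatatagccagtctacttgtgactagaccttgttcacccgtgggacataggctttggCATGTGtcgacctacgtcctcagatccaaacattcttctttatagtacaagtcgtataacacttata
BHLH100, chr2:17199455-17199704: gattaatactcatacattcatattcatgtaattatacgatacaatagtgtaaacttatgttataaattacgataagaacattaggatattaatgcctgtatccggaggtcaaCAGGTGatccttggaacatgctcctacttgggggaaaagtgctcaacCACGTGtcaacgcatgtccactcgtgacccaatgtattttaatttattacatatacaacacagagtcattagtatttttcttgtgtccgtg
BHLH101, chr5:1139634-1139883: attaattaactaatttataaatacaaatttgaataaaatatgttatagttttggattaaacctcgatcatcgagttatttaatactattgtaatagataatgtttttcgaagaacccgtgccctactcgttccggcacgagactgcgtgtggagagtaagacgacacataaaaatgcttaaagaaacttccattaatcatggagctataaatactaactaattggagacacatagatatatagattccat
A G-box was found at -97 to -92 from the start of BHLH38 and at -91 to -86 from that of BHLH100. BHLH39 has an E-box of another form at -67 to -62. When the windows of BHLH38 and BHLH39 were aligned, 164 of 215 aligned bases were identical (76.3%) and this E-box fell on the G-box of BHLH38. They differ by C3T, with positions counted from 1 at the 5′ end of the 6 letters, the base of BHLH38 first and that of BHLH39 last. BHLH101 has neither motif in its window, which says nothing of what binds elsewhere. Across 27443 protein-coding genes of the reference, 6.49% have a G-box and 55.3% an E-box in a window of this length, so an E-box alone is common. A G-box is present upstream of 7 of the 56 other iron genes described below (12.5%), and the match of letters is a description, not a binding site.

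In pwo1, BHLH38, BHLH39 and BHLH100 were listed, all higher than in Col-0, and BHLH101 was not listed. By comparison, 4.38% of the 27562 protein-coding genes of the reference are in that table and 1.88% are in it as higher. All 3 members were also at least 2-fold higher, beside 0.646% of protein-coding genes, and higher with p under 0.001 in both tools, beside 1.11%. Which genes the authors tested is not stated, so these shares may be too low as a background. Since the members were chosen with their values known, nothing is read from the count. BHLH100 stood at 3.58 (11.97-fold, edgeR p = 8.04e-08) in the authors' deposited table. BHLH38 was at 3.34 in the authors' deposited table (10.14-fold, edgeR p = 1.92e-06) and BHLH39 at 3.27 (9.62-fold, edgeR p = 1.15e-06). The estimates for the 3 genes were thus close to each other, though each is uncertain, as the intervals below show.

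The tables give no standard error, so one was worked back from the edgeR fold change and its p, taking the estimate as normal. The p was also taken as unadjusted, which is not stated. In pwo1 this implied error was 0.67 for BHLH100 and BHLH39 and 0.70 for BHLH38. The matching 95% intervals ran from 4.83-fold to 29.6-fold for BHLH100, from 3.91-fold to 26.3-fold for BHLH38 and from 3.86-fold to 23.9-fold for BHLH39. Those intervals overlap almost wholly, so the values in pwo1 give no order among the 3 genes. Cuffdiff gave 3.64, 3.33 and 3.33 for BHLH100, BHLH38 and BHLH39 in the authors' deposited table, and edgeR minus Cuffdiff ran from -0.06 to 0.01.

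In crwn1 crwn2 all 4 genes were listed and all were higher than in Col-0, beside 6.91% of protein-coding genes in the table and 3.92% in it as higher. All 4 were at least 2-fold higher, beside 1.97%, and higher with p under 0.001 in both tools, beside 2.84%. The largest value among them was that of BHLH100, 5.31 (39.7-fold, edgeR p = 4.14e-22) in the authors' deposited table. BHLH38 was at 5.23 (37.6-fold, edgeR p = 3.77e-19) and BHLH39 at 4.62 (24.6-fold, edgeR p = 3.94e-17) in the authors' deposited table. BHLH101 stood well below them in the authors' deposited table, at 1.92 (3.79-fold, edgeR p = 1.29e-11).

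In crwn1 crwn2 the implied error was 0.55 for BHLH100 and BHLH39, 0.59 for BHLH38 and 0.28 for BHLH101. In fold terms the 95% intervals were 18.8 to 83.7 for BHLH100, 17.0 to 83.3 for BHLH38 and 11.7 to 51.8 for BHLH39, which overlap. That of BHLH101, 2.58 to 5.56, lies wholly below those of the others. Cuffdiff gave 5.18, 5.18, 4.55 and 1.89 for BHLH100, BHLH38, BHLH39 and BHLH101 in the authors' deposited table, and so the same separation of BHLH101.

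**Figure D2:**
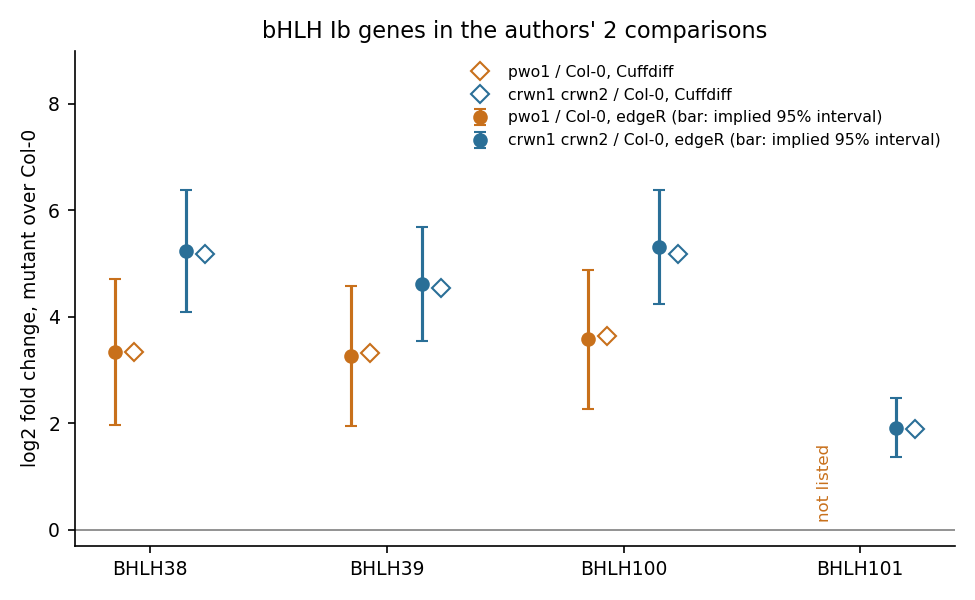
Log2 fold changes of the 4 bHLH Ib genes (y axis), pwo1 or crwn1 crwn2 over Col-0, from the authors' deposited tables. Circles are edgeR values with the implied 95% interval and diamonds are Cuffdiff values; BHLH38, BHLH39 and BHLH100 lie between 3.27 and 3.58 in pwo1 and between 4.62 and 5.31 in crwn1 crwn2, and BHLH101 is at 1.92 in crwn1 crwn2 and not listed for pwo1.

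For each gene listed for both mutants, the fold change was larger in crwn1 crwn2 than in pwo1. The difference on the log2 scale, crwn1 crwn2 minus pwo1, was 1.89 for BHLH38, 1.35 for BHLH39 and 1.73 for BHLH100 by edgeR, and 1.85, 1.22 and 1.53 by Cuffdiff, in the authors' deposited tables. The 95% intervals of the mutants overlapped for each of the 3 genes, and the difference was not tested. Both comparisons used the same Col-0 samples, so they are not independent of each other.

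These values lie near the top of each table. By fold change, BHLH100 ranked 5, BHLH38 ranked 9 and BHLH39 ranked 10 of 1239 genes in the authors' deposited table for pwo1. In that for crwn1 crwn2, BHLH100 ranked 5, BHLH38 ranked 6, BHLH39 ranked 7 and BHLH101 ranked 166 of 1935. The order by edgeR p is different, since BHLH100, BHLH38 and BHLH39 stand at 189, 282 and 267 in the authors' deposited table for pwo1, against 17, 22 and 39 in that for crwn1 crwn2. For scale, the median log2 fold change of all genes listed as higher was 0.81 for pwo1 and 1.01 for crwn1 crwn2 in the authors' deposited tables.

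**Figure D3:**
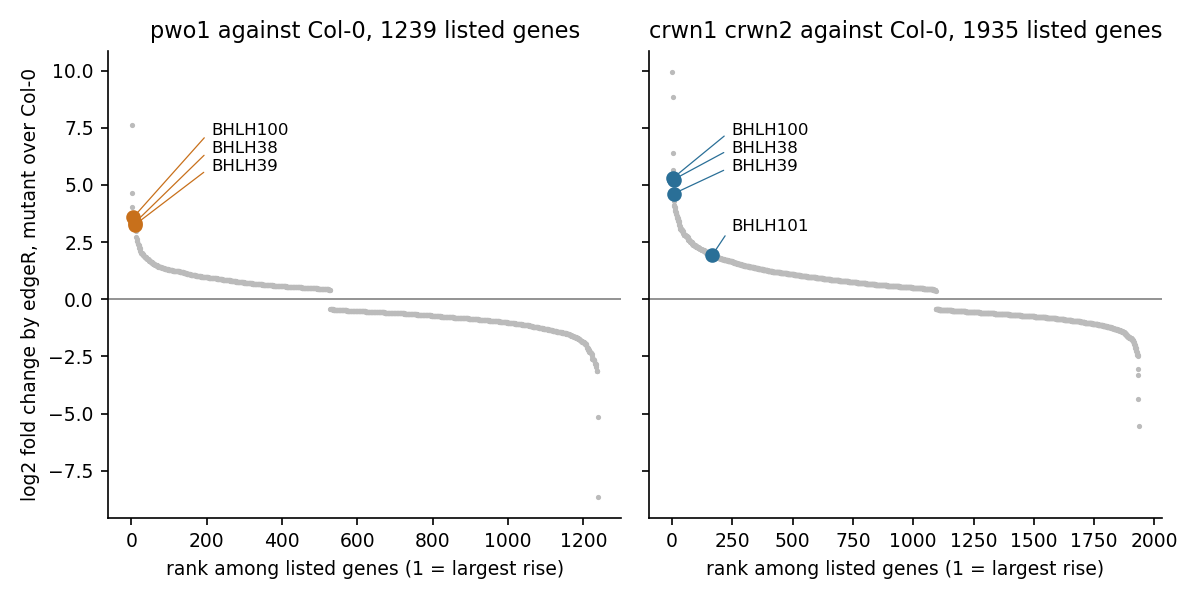
Every listed gene of the authors' deposited tables, ranked by its edgeR log2 fold change, mutant over Col-0 (y axis), for pwo1 on the left and crwn1 crwn2 on the right. Coloured points are the bHLH Ib genes: BHLH100, BHLH38 and BHLH39 sit at ranks 5, 9 and 10 in pwo1 and at 5, 6 and 7 in crwn1 crwn2, where BHLH101 sits at rank 166.

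The rest of the iron network was read from 7 lists with 56 genes, chosen by role but with earlier results of these data known. Nothing is therefore read from how many of them were listed. In pwo1 16 of them rose, none fell and 40 were not listed, beside 1.88% of protein-coding genes listed as higher and 2.50% as lower. In crwn1 crwn2 16 rose, 3 fell and 37 were not listed, beside 3.92% higher and 2.99% lower. The median log2 fold change of the listed iron genes was 1.95 in pwo1 and 1.33 in crwn1 crwn2. Over all listed genes, of both directions, it was -0.53 and 0.53 in the authors' deposited tables. Over the genes listed as higher alone it was 0.81 and 1.01. As the lists were chosen with results known, nothing is read from these medians either.

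The proteins that act with or above the bHLH Ib factors were mostly not listed. FIT, the partner through which they act in roots, was in neither table, nor were the class IVa genes BHLH18, BHLH19, BHLH20 and BHLH25, whose products promote FIT degradation. The class IVc activators BHLH34, BHLH104, ILR3 and BHLH115 and the activator BHLH121 were also in neither. None of the 12 genes in the regulator list, not all of which act above the bHLH Ib genes, was listed for pwo1. That table holds 4.38% of protein-coding genes. In crwn1 crwn2 3 of the 12 rose, beside 3.92% of protein-coding genes listed as higher. In the authors' deposited table for crwn1 crwn2 these were BTS at 1.48 (edgeR p = 1.16e-11), its relative BTSL2 at 0.61 and PYE, a bHLH repressor of iron distribution genes, at 1.25. BTSL2 overlaps another gene on the opposite strand by 139 bases.

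Of the peptide genes IMA1, IMA2 and IMA3, whose products counter BTS, 2 of 3 rose in pwo1, beside 1.88% of protein-coding genes. IMA1 was at 2.44 and IMA2 at 2.23 in the authors' deposited table for pwo1, where IMA3 was not listed. All 3 rose in crwn1 crwn2, beside 3.92%, with IMA1 at 3.79, IMA2 at 3.78 and IMA3 at 2.38 in the authors' deposited table. IMA1 and IMA2 share 10 of their 50-base stretches, out of 730 in IMA1 and 784 in IMA2. IMA3 overlaps 2 genes on the opposite strand, and 1 of them, CYP71A13, a gene of camalexin synthesis, is itself at 1.66 in the authors' deposited table for crwn1 crwn2, so the value of IMA3 is uncertain.

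In the iron uptake list 3 of 5 genes rose in pwo1, beside 1.88% of protein-coding genes listed as higher. For crwn1 crwn2 2 of 5 rose, beside 3.92%. The ferrous iron transporter gene IRT1 was at 4.05 for pwo1 and at 3.55 for crwn1 crwn2, and the ferric reductase gene FRO2 at 3.56 and 2.80, in the authors' deposited tables. For both genes the value in pwo1 was the larger, the reverse of the order seen in the bHLH Ib genes, and neither difference was tested. The implied 95% intervals of the mutants overlapped for both. For IRT1 they were 9.04-fold to 30.5-fold in pwo1 and 5.64-fold to 24.4-fold in crwn1 crwn2. Those of FRO2 were 7.2-fold to 19.4-fold and 3.75-fold to 12.9-fold. IRT2, a relative of IRT1, was listed for pwo1 alone, at 1.87 in the authors' deposited table. The proton pump genes AHA2 and AHA7 were not listed for either mutant.

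Coumarins are phenolics that roots release to mobilise iron. Of the 5 genes of their synthesis and export, 4 rose in pwo1, beside 1.88% of protein-coding genes listed as higher. In the authors' deposited table for pwo1, S8H was at 7.64, CYP82C4 at 4.67, the exporter gene PDR9 at 0.80 and the glucosidase gene BGLU42 at 0.51. For S8H, the hydroxylase that makes fraxetin, Cuffdiff gave a p of 0.0026, the largest Cuffdiff p of these genes in the authors' deposited table. In crwn1 crwn2 CYP82C4 was the 1 member of this list that rose, with 3.73 in the authors' deposited table, beside 3.92% of protein-coding genes. As with all 7 lists, nothing is read from these counts. Of the 50-base stretches of CYP82C4, 8.50% occur elsewhere in the reference genome, which makes its value uncertain. F6'H1, which makes the coumarin scopoletin, was in neither table.

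Metal transport and chelation genes were listed for 4 of 18 members in pwo1 and 7 of 18 in crwn1 crwn2, all higher. Beside them, 1.88% and 3.92% of protein-coding genes were listed as higher. FPN2 was the 1 gene of this list in both. By comparison, 508 genes of any kind were in both tables, out of 1239 listed for pwo1 and 1935 for crwn1 crwn2. FPN2, which loads metals into root vacuoles, was at 2.02 for pwo1 and 1.47 for crwn1 crwn2 in the authors' deposited tables, and it overlaps another gene by 152 bases on the opposite strand. Listed for pwo1 and not for crwn1 crwn2 were NAS2 (nicotianamine synthase) at 2.12, MTP3 (vacuolar zinc transport) at 1.29 and FRD3 (citrate efflux into the xylem) at 0.99 in the authors' deposited table. MTP3 was lower by Cuffdiff, at 0.71 in the authors' deposited table. Listed for crwn1 crwn2 and not for pwo1 were 6 genes: FRO3 (mitochondrial ferric reductase, with 24 bases of overlap with LPR1 on the opposite strand) at 1.38, OPT3 (iron loading into the phloem) at 1.33, NAS4 at 1.18, NRAMP4 (iron release from vacuoles) at 1.14, ZIF1 (nicotianamine import into vacuoles) at 0.91 and NAS1 at 0.53 in the authors' deposited table. A gene listed for 1 mutant is not shown to differ between the mutants.

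The iron storage and sufficiency list holds 8 genes, such as ferritins, which bind iron when it is ample, and 3 of them were in neither table. In pwo1 3 of 8 rose, beside 1.88% of protein-coding genes listed as higher. They were the ferritin genes FER1 at 1.06 and FER3 at 0.96 and the vacuolar iron transporter-like gene VTL5 at 0.59 in the authors' deposited table. In crwn1 crwn2 3 of 8 fell, beside 2.99% of protein-coding genes listed as lower. They were FER1 at -1.13, FER4 at -0.85 and VTL2 at -1.10 in the authors' deposited table. FER1 was the 1 gene of this list in both tables, which share 508 genes of any kind, and its directions were opposite. FER3 and VTL5 were not listed for crwn1 crwn2, nor FER4 and VTL2 for pwo1. A noncoding gene on the opposite strand overlaps FER1 by 1334 bases, which makes its value uncertain, and FER4 overlaps a gene on the same strand by 118 bases.

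**Figure D4:**
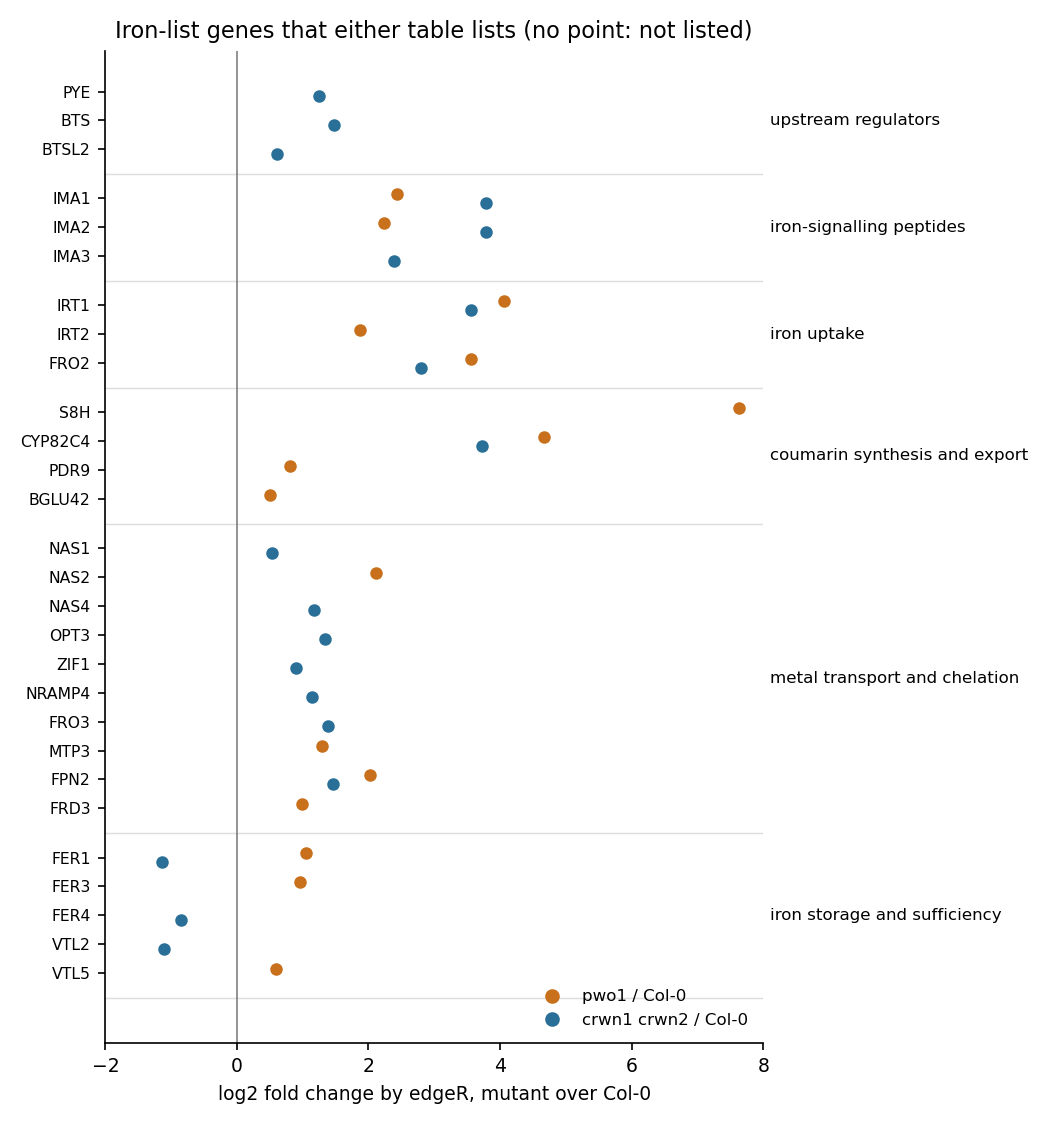
Log2 fold changes by edgeR (x axis), mutant over Col-0, of the iron genes that either of the authors' deposited tables lists, grouped by role. Orange points are pwo1 and blue points crwn1 crwn2, and a missing point means that the gene is not listed; FER1 is at 1.06 in pwo1 and -1.13 in crwn1 crwn2.

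The genes next to the bHLH Ib genes on the chromosome were examined in the same tables. Besides BHLH38 and BHLH39, which adjoin each other, 6 neighbouring protein-coding genes were looked up. PIP5K4, EDA7, AT2G41231, GLU1 and AT5G04160 were in neither table. AT2G41250, which encodes a haloacid dehalogenase-like hydrolase and lies 1202 bases upstream of BHLH100 on the same strand, was at 0.87 in the authors' deposited table for crwn1 crwn2 (1.82-fold, edgeR p = 1.23e-06). It was not listed for pwo1.

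Of 132 other genes that the reference describes as bHLH proteins, 126 were not listed for pwo1 and 117 were not listed for crwn1 crwn2. In pwo1 1 was higher (0.758%) and 5 were lower (3.79%), beside 1.88% and 2.50% of protein-coding genes. In crwn1 crwn2 4 were higher (3.03%) and 11 lower (8.33%), beside 3.92% and 2.99%. The 4 with the smallest edgeR p for pwo1 were PRE1, a helix-loop-helix growth regulator, at -1.80, the light signalling factor HFR1 at -1.43, HBI1, a factor that promotes cell elongation, at -0.78 and AT5G50915 at 1.06 in the authors' deposited table. For crwn1 crwn2 they were AT2G43140 at 2.50, AT2G40200 at 1.80, PYE at 1.25 and UNE10, which acts in phytochrome signalling, at 0.97 in the authors' deposited table. The bHLH Ib genes BHLH38, BHLH39 and BHLH100 exceeded every one of these values in both mutants. BHLH101, at 1.92 in crwn1 crwn2, was below AT2G43140 there and was not listed for pwo1. The members were chosen with their values known, so nothing is read from this order.

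The genes whose pair of fold changes was most like that of BHLH38, BHLH39 and BHLH100 were sought among the other 505 genes listed for both mutants. Likeness was the straight-line distance, on the log2 scale over the 2 comparisons, to the mean pair of the 3 genes, which was 3.40 for pwo1 and 5.05 for crwn1 crwn2. Of the 3 genes themselves, the farthest lay 0.45 from that mean. Nearest was ELIP2, an early light-inducible protein of the chloroplast, at a distance of 1.15, with 2.72 for pwo1 and 4.13 for crwn1 crwn2 in the authors' deposited tables. IMA1 followed at a distance of 1.58, IRT1 at 1.64, IMA2 at 1.72 and CYP82C4 at 1.84. The last 3 of the 8 were AT1G13609, a defensin-like gene, at 2.03, the peroxidase gene AT5G64120, and FRO2 at 2.26. Of the 8, 5 were in the iron lists, beside 7 of all 505 genes compared. The mean pair lies high in both tables, and the lists were chosen with earlier results known. Nothing is therefore read from this count.

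**Figure D5:**
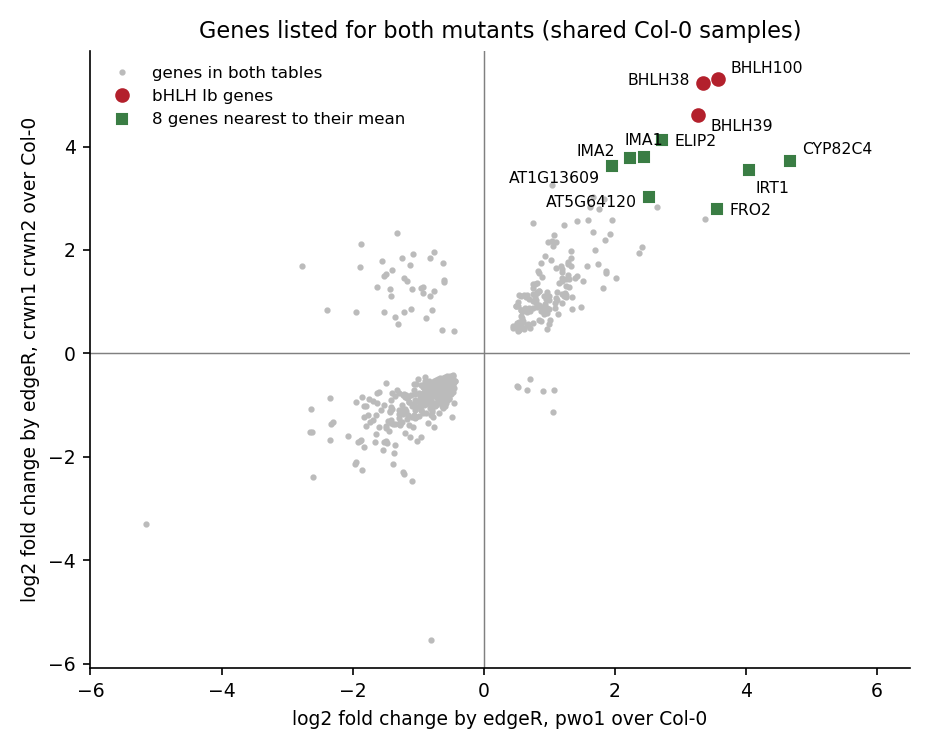
Each point is 1 of the 508 genes in both of the authors' deposited tables, with the edgeR log2 fold change of pwo1 over Col-0 on the x axis and of crwn1 crwn2 over Col-0 on the y axis. The bHLH Ib genes (red) lie around 3.40 and 5.05, with ELIP2 the nearest of the 8 green squares; both axes share the Col-0 samples.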

How the data were processed

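RNA-seq of whole seedlings was deposited as 2 tables of the authors' comparisons, pwo1 and crwn1 crwn2 against Col-0. Per the file headers, each holds log2 fold changes and p-values by edgeR and by Cuffdiff, and the log2 values are the authors' own. The submitters' processing notes name Trimmomatic 0.35, TopHat2 2.0.12, HTSeq 0.6.1, edgeR 3.3, Cuffdiff 2.2.1 and the build TAIR10, with no roles. The sources used here state neither the filter for listing a gene nor whether the deposited p-values are adjusted. Cuffdiff's p of 5e-05, the smallest in the deposited tables, is shared by 596 genes for pwo1 and 1092 for crwn1 crwn2, and depth is unknown.

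A gene counted as changed when listed, and the authors' edgeR value is the main one. The members and lists were chosen with earlier results of these data known, and no test was run on them. Implied standard errors are the fold change over the normal quantile of its p. An upper bound of the adjusted p used Benjamini-Hochberg over 38312 reference genes. Both take the deposited p as unadjusted. Named genes are the 4 bHLH Ib genes, listed members of the 7 lists, neighbouring genes, the mutated genes, the 8 nearest in pattern and 4 other bHLH genes per table. CYP71A13 and the other overlapping genes were added after their values were seen. Names, gene models and sequences are from the RefSeq annotation and genome TAIR10.1, which held all 56 iron-list genes. The files carry no coordinates, so positions are those of TAIR10.1 alone. Coding sequences were aligned globally with Biopython 1.88, and the motif search and the bound were tested on simulated data. Python 3.11.15, pandas 2.3.3 and SciPy 1.17.1 were used.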

Additional observations from a re-analysis of the deposited data

How the results depend on the processing

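With Cuffdiff in place of edgeR, the median log2 fold change of the listed bHLH Ib genes was 3.33 against 3.34 in pwo1 and 4.86 against 4.93 in crwn1 crwn2. The counts of 3 and 4 higher bHLH Ib genes were unaffected by the direction from Cuffdiff, by a 2-fold threshold, by p under 0.001 in both tools and by an adjusted p bound under 0.05. The members were chosen with their values known, so these settings are no test of the counts. Among all listed genes with a finite Cuffdiff value, the tools differed in sign for 0 in pwo1 and 1 in crwn1 crwn2. Under those settings the 16 higher iron genes became 11 to 16 in pwo1 and 13 to 16 in crwn1 crwn2, and the 3 lower ones in crwn1 crwn2 became 2 or 3. S8H did not have p under 0.001 in both tools, nor did BTSL2, NAS1 and FRO3, and NAS1 alone missed the adjusted bound. No paired analysis was possible because the tables hold no values per replicate, and no replicate could be left out.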
